A study of Caenorhabditis elegans with 2 samples.

Results

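The CCT chaperonin ring genes of Caenorhabditis elegans are cct-1 to cct-8, which encode the subunits alpha to theta in that order. They were taken by name from the WBcel235 annotation of Ensembl release 115, which gave 8 of 19973 protein-coding genes, and RefSeq describes each of them as a subunit of T-complex protein 1, another name of the complex. The data come from chromatin immunoprecipitation sequencing (ChIP-seq) of the product of R02D3.7, a gene that the annotation calls rcat-1. The animals were whole third-stage larvae (L3) of mixed sex from strain OP218, with the genotype unc-119(ed3) III and wgIs218, a transgene insertion that supplies R02D3.7 fused to eGFP. The labels hold 1 group with 2 biological replicates, give R02D3.7 as the antibody, and do not name the promoter that drives the transgene. No control sample was analysed here, so sites of the tagged protein and sites that any tagged protein would give cannot be told apart. The peaks also average over all tissues of the larva.

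CCT, also known as TRiC, is an ATP-driven folding machine of the cytosol built as a pair of stacked rings. Each of its paralogous subunits takes a fixed place in the ring, so the complex needs all of them together. Actin and tubulin are its best known clients, and prefoldin hands such unfolded chains to it. Many worm transcripts are trans-spliced to a leader, so an annotated start often marks a splice site near the start codon and not the place where transcription began. In the annotation used here the first starts of the 8 genes lie 1 to 30 bp before their start codons. Distances below are counted from those starts.

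The values are the authors' own signal for each listed region, and the sources used here do not give its scale. They serve only to describe and rank regions within 1 list. A region was assigned to a gene when its summit fell no more than 1000 bp upstream, or 200 bp downstream, of any of its annotated starts. The genes and this rule were chosen with all 4 lists in view, so the signals, ranks and counts below are a description and none was tested. The strictest list, cut by the irreproducible discovery rate (IDR), held 1584 peaks with signals of 50.7 to 4055 and a median of 82.2. It consists of the 1584 highest regions of the relaxed list of the pooled replicates, which held 30000 regions. That pooled list is labelled as peaks and background, so a region in it need not be a peak. The relaxed lists held 30000 regions for replicate 1 and 29367 for replicate 2.

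The letters around the strongest promoter summits are shown first, because 2 short elements recur in them, the first in 7 and the second in 3 of the 8 promoters. The choice of genes did not use them, but the second was read off these same sequences. Heat shock elements, the sites of heat shock factors such as HSF-1, are built of GAA units in alternating orientation. A pair of such units, GAANNTTC or TTCNNGAA, lay within the 200 bp around the summit in 7 of the 8 promoters. The promoter of cct-3 had none. The pair was found at 16.2% of IDR peaks and in 23.5% of windows of the same length at coding promoters. In 100 bp around the summit it was left in 2 of the 8, against 12.3% of coding promoters. Each of the 7 pairs is printed 5′ to 3′ on the strand of its CCT gene, from the RefSeq sequence of WBcel235 (ce11). The paired units are in capitals, with 12 bases on each side.
cct-1, chrII:8185239-8185270, plus strand: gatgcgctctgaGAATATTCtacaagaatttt
cct-2, chrII:8927463-8927494, plus strand: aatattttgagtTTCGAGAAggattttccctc
cct-4, chrII:8283489-8283520, plus strand: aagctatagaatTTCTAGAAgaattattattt
cct-5, chrIII:4508514-4508545, minus strand: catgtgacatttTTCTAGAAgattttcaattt
cct-6, chrIII:5855907-5855938, minus strand: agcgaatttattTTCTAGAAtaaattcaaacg
cct-7, chrV:1872020-1872051, plus strand: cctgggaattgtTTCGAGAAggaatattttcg
cct-8, chrIV:1094286-1094317, minus strand: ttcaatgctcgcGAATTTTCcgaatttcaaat

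The second element is the word GGGTCTC followed by 2 free bases and CACG, written GGGTCTCNNCACG. It was picked out after the sequences had been seen and occurs at cct-1, cct-4 and cct-6. The element was found at 1.52% of IDR peaks and 0.521% of coding promoters. The letters CACG were taken because these 3 copies share them. The 3 copies are printed on the strand that reads GGGTCTC, with the fixed letters in capitals.
cct-1, chrII:8185193-8185217, plus strand: ggtgttGGGTCTCggCACGattacc
cct-4, chrII:8283411-8283435, plus strand: tcaagtGGGTCTCgcCACGaaacca
cct-6, chrIII:5855960-5855984, plus strand: gcaactGGGTCTCacCACGcagaga

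The wider windows of the 3 strongest promoters and of cct-4 show how the elements are placed. Each runs 5′ to 3′ toward its CCT gene, and capitals mark the paired units, the GGGTCTCNNCACG element on either strand, and 2 further words, AAATCGCGG and CGTAAATC, that are described with the other motifs. The cct-6 window stops at the Ensembl start of the neighbouring gene.
cct-1, chrII:8185092-8185291, plus strand: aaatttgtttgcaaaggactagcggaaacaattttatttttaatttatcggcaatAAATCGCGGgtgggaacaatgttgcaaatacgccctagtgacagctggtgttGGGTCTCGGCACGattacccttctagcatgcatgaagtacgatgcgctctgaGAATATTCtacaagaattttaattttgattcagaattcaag
cct-8, chrIV:1094271-1094470, minus strand: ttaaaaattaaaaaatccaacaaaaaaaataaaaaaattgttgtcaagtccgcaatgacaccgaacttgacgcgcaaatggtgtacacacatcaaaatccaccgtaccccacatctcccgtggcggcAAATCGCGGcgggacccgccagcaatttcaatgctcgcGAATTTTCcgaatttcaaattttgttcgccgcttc
cct-6, chrIII:5855876-5856017, minus strand: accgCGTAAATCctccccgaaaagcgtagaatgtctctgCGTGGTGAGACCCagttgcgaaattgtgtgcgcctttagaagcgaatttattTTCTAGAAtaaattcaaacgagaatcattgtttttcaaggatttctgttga
cct-4, chrII:8283315-8283514, plus strand: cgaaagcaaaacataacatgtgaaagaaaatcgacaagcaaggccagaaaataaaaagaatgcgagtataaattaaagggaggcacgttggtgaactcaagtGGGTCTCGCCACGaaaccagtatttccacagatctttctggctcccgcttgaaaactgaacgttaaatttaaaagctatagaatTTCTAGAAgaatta

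The ring genes did not carry like amounts of signal. An IDR peak stood in the promoter window of 4 of the 8 genes, cct-1, cct-8, cct-6 and cct-7, against 7.72% of all protein-coding genes. The first 3 of these were among the first 100 IDR peaks, against 0.751% of all protein-coding genes. The other 4, cct-5, cct-4, cct-2 and cct-3, had only regions of the relaxed lists. All 8 had a pooled summit in the window, against 41.7% of all protein-coding genes, so presence in the relaxed list says little about any one of them.

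The promoter of cct-1, the alpha subunit gene (WBGene00000377), had the highest signal of the 8. Its region, chrII:8185052-8185362, had a signal of 512 in the pooled list, 316 in replicate 1 and 193 in replicate 2. It ranked 68 in the pooled list, 68 in replicate 1 and 74 in replicate 2. The rank was thus nearly the same in each list, and the pooled summit lay 251 bp upstream of the start.

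The theta subunit gene cct-8 (WBGene00021934) came next. Its region, chrIV:1094205-1094531, had a signal of 459 in the pooled list, 293 in replicate 1 and 162 in replicate 2. The ranks were 83, 79 and 96 in the same lists. The summit stood 450 bp upstream, the farthest from its own gene among the 8.

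The zeta subunit gene cct-6 (WBGene00000381) had almost the same signal as cct-8. Its region, chrIII:5855814-5856131, had a signal of 427 in the pooled list, 264 in replicate 1 and 168 in replicate 2. It ranked 96 in the pooled list and 92 in each replicate, with its summit 288 bp upstream. The summits of the replicates lay 2 bp apart, the closest pair of the 8 genes. In replicate 2 cct-6 stood above cct-8 and in replicate 1 below it, so the order of these neighbours did not repeat.

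The eta subunit gene cct-7 (WBGene00020391) had an IDR peak of ordinary height. Its region, chrV:1871761-1872144, had a signal of 86.9 and rank 740 in the pooled list, close to the IDR median of 82.2. The signal was 54.5 with rank 623 in replicate 1, and 30.8 with rank 1473 in replicate 2. The summit was 293 bp upstream of the start. Of the 4 genes with an IDR peak, cct-7 is the one that came near the end of the first 1584 regions in a replicate.

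The epsilon subunit gene cct-5 (WBGene00000380) was the first to fall outside the IDR list, which ended at a signal of 50.7. Its region, chrIII:4508360-4508743, had a signal of 36.0 and rank 2619 in the pooled list, with its summit 438 bp upstream. Replicate 1 had a signal of 11.7 at rank 6017 and replicate 2 a signal of 27.5 at rank 1772. The replicates thus placed it far apart, and their summits lay 109 bp from each other. A second, weaker pooled region (signal 11.1) lay 147 bp downstream of the start.

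The delta and beta subunit genes had only regions of low signal, at the usual distance. The authors' −log10 q-value in the pooled list was 0.514 for cct-4, 0.462 for cct-2 and 0.102 for cct-3. In the IDR list it was at least 2.95. These regions are therefore not told apart from background. The cct-4 region (WBGene00000379), chrII:8283223-8283606, had a pooled signal of 20.9 at rank 7139 and a summit 252 bp upstream. Replicate 1 ranked it 4457 with a signal of 13.6, and replicate 2 ranked it 25868 with a signal of 7.63. The replicates placed its summit 21 bp apart although its rank differed widely.

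For cct-2 (WBGene00000378) the region chrII:8927267-8927650 had a pooled signal of 20.2 at rank 7706 and a summit 282 bp upstream. The signal was 7.81 with rank 13819 in replicate 1 and 10.3 with rank 14125 in replicate 2. The replicate summits lay 56 bp apart.

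The gamma subunit gene cct-3 (WBGene00018782) had the least signal in the pooled list. Its highest promoter region, chrII:2233011-2233394, had a pooled signal of 13.5 at rank 18552, below the list's median signal of 15.0, with its summit 337 bp upstream. That region overlapped no region of either replicate. The window also held a pooled region of signal 12.2 with a summit 945 bp upstream, just inside the bound. The next pooled summit, 1153 bp upstream and just outside, had a signal of 17.3. Replicate 1 listed 1 region in the window, at 945 bp with a signal of 10.2 and rank 8010, and replicate 2 listed none. In replicate 1 it thus stood above cct-2, which had a signal of 7.81.

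The regions of cct-1, cct-8 and cct-6 had similar ranks in both replicates, while cct-7 ranked 623 in replicate 1 and 1473 in replicate 2. The same 4 genes that had an IDR peak were among the first 1584 regions of each replicate, against 7.92% of protein-coding genes in replicate 1 and 6.92% in replicate 2. Only 5.59% of protein-coding genes were among those regions in both. Both replicate lists were made with a shared control alignment, per the deposited list of files, so they are not fully independent. The IDR list was itself made from both replicates, so the agreement of its genes across them is partly built in. Over the 7 genes with a region in both replicates the median distance between replicate summits was 13 bp. The median pooled rank of the 8 genes was 1679.5, just past the last IDR rank, with 4 genes above that rank and 4 below it.

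**Figure D1:**
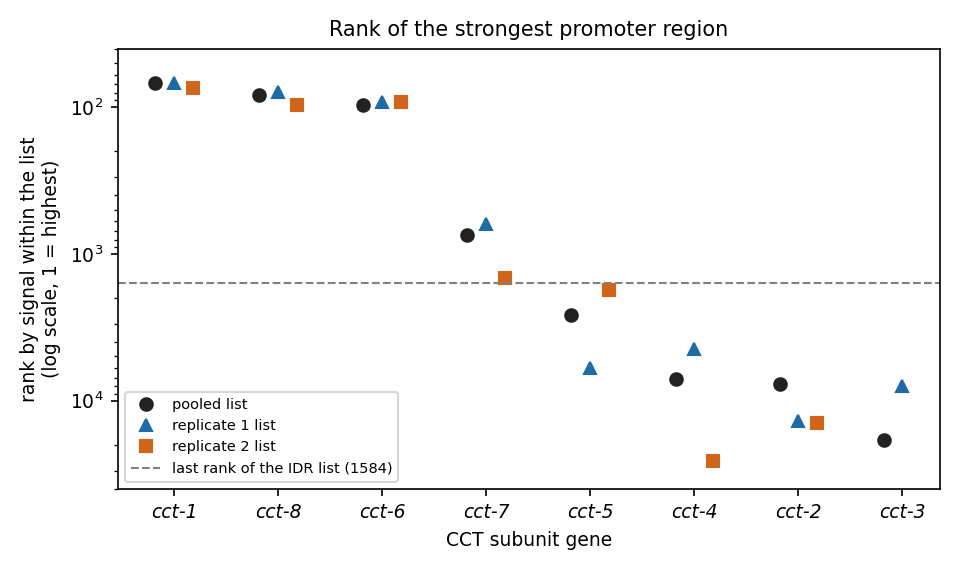
Rank by signal of the strongest promoter region of each CCT gene (y axis, log scale, 1 at the top) in the pooled, replicate 1 and replicate 2 lists; the dashed line marks rank 1584, the end of the IDR list. The markers of cct-1, cct-8 and cct-6 lie together between ranks 68 and 96, those of cct-7 lie between 623 and 1473, and those of cct-5, cct-4, cct-2 and cct-3 lie below the line and spread apart; cct-3 has no replicate 2 marker.

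Within the genes themselves the listed signal was low. Beyond the promoter window, pooled regions with a summit inside the gene reached 13.4 at cct-1 and 19.0 at cct-8, and cct-6 had none. In cct-7 the highest region in the gene had a signal of 13.6. For cct-5 the highest was 27.7, against 36.0 at its promoter. Only at cct-3 did the gene itself hold a higher region than the promoter, 24.4 against 13.5. The gene spans 10000 bp and held 6 pooled regions beyond the window.

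Every CCT gene has a head-to-head neighbour, that is, the nearest coding start upstream is on the other strand. This was so for 8 of the 8, against 45.8% of all protein-coding genes. In 6 of them the gap between the Ensembl starts was under 1000 bp, against 18.1% of all protein-coding genes. Of the 3609 genes of that layout 21.5% carried an IDR summit, against 4.67% of the other 16364 genes. One region in such a gap counts for both genes, and a peak list does not show which of them the protein acts on, if any.

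The neighbour of cct-1 is mig-5, which encodes a Dishevelled homolog of Wnt signalling. The starts lie 420 bp apart and the summit stood 169 bp upstream of mig-5. The neighbour of cct-8 is Y55F3AR.2, annotated by RefSeq as a thioredoxin domain-containing protein, with starts 621 bp apart and the summit 171 bp upstream of it. The neighbour of cct-7 is T10B5.4, annotated as an aralkylamine N-acetyltransferase, with starts 439 bp apart and the summit 146 bp upstream of it. In these 3 pairs the summit was nearer to the neighbour's start than to that of the CCT gene.

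With Ensembl starts the cct-6 promoter is the tightest of the 8. Its neighbour is alh-9, annotated as a putative aldehyde dehydrogenase of family 7, and the starts lie 331 bp apart with the summit 43 bp upstream of alh-9. RefSeq places the start of alh-9 farther away, 1234 bp from the summit and outside the promoter window. All 4 IDR summits therefore lay in the window of a neighbouring coding gene with Ensembl starts, and 3 of them with RefSeq starts. With Ensembl gaps of 331 to 621 bp and a window of 1000 bp upstream, any summit between such starts lies in both windows. The count thus follows from the layout, and no share over all IDR summits is given here.

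The genes without an IDR peak had these neighbours. The neighbour of cct-4 is nst-1, which encodes a GTPase of the nucleostemin type, with starts 459 bp apart and the summit 207 bp upstream of it. For cct-5 it is F25F2.1, annotated as a protein kinase domain protein, with starts 741 bp apart and the summit 303 bp upstream of it. The gap was 1190 bp between cct-2 and B0457.2, and 1070 bp between cct-3 and F54A3.6. These are the widest of the 8 with Ensembl starts, while with RefSeq starts that of cct-6 is wider, at 1522 bp. With Ensembl starts the summit was nearer to the neighbour's start for 6 of the 8 genes, among them all 4 with an IDR peak. With RefSeq starts this held for 5 of the 8, among them 3 of the 4 with an IDR peak, because the cct-6 summit was then nearer to cct-6. No share over all genes with a head-to-head neighbour is given here, so these counts do not mark a trait of the CCT genes.

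The summits therefore lay some way from the CCT starts, 251 to 450 bp for the 4 genes with an IDR peak. Over all 1542 genes with an IDR summit in their window, the strongest summit had a median distance of 232 bp upstream with quartiles of 132 and 404 bp. A distance over 250 bp was found for 46% of them. Of the 4 CCT summits, that of cct-8 lay past the upper quartile.

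**Figure D2:**
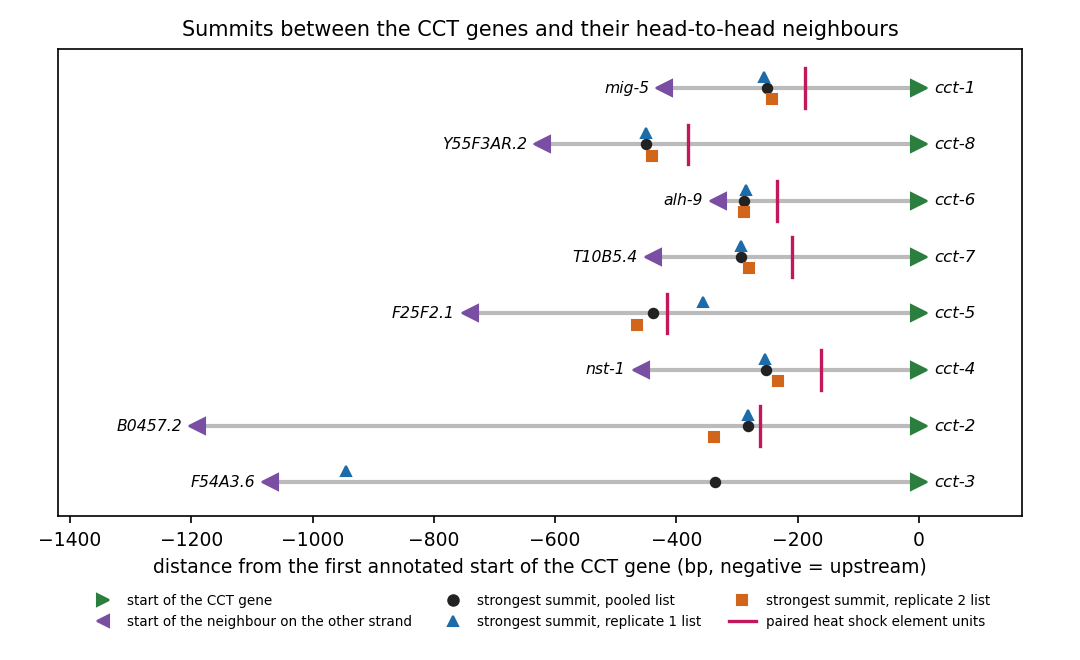
Summits between each CCT gene and its head-to-head neighbour, with distance in bp from the first annotated CCT start on the x axis (Ensembl starts); arrowheads mark both starts, small markers the strongest summit in each list, and vertical bars the paired heat shock element units within 200 bp windows around the pooled summit. The bars lie between the pooled summit and the CCT start in all 7 genes that have one, and at cct-1, cct-8, cct-6 and cct-7 the replicate summits lie 2 to 13 bp apart.

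Short noncoding genes stood beside the summits of 2 of the 4 IDR peaks. The ncRNA gene T10B5.13 begins 27 bp from the cct-7 summit, inside the gap shared with T10B5.4. The ncRNA gene Y55F3AR.4 lies 161 bp from the cct-8 summit. An annotated noncoding gene within 200 bp was found at 21.8% of all IDR summits.

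The paired units printed above all lay on the CCT side of the summit, between it and the start of the CCT gene. Their distances from the pooled summit were 16 bp at cct-2, 19 bp at cct-5, 49 bp at cct-6, 59 bp at cct-1, 65 bp at cct-8, 79 bp at cct-7 and 86 bp at cct-4. None overlapped the summit itself, and the 2 nearest belonged to genes with no IDR peak. The 7 of 8 promoters with paired units compare with 16.2% of IDR peaks, 20% of the first 100 IDR peaks and 23.9% of pooled regions outside the IDR list. In windows of the same length centred 290 bp upstream of 29773 coding starts the share was 23.5%. In 100 bp around the summit the units were left in 2 of the 8, cct-2 and cct-5, against 6.12% of IDR peaks and 12.3% of coding promoters. The share at IDR peaks was not above that at promoters in general. CCT genes with and without an IDR peak both had the units. Median GC content also differed, at 43% for IDR peaks and 34% for coding promoters. A link between the units and the signal was not tested.

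Some of these units came with longer shared letters. The full palindrome TTCTAGAA occurred at cct-4, cct-5 and cct-6, against 1.39% of IDR peaks and 1.51% of coding promoters. This word was added after the sequences had been seen, so its count is not independent of that choice. In 100 bp windows only cct-5 had it, against 0.758% of IDR peaks and 0.672% of coding promoters. In the printed stretches cct-4 and cct-5 share the 11 letters TTTCTAGAAGA. The longest run in common was GTTTCGAGAAGGA, 13 letters found at both cct-2 and cct-7. Every stretch was cut around a pair of units, so part of any shared run follows from that choice. These runs are the longest among all pairs of stretches compared, and no background share is given for them.

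The GGGTCTCNNCACG element sat at the summits. Its first base along the direction of the CCT gene was 7 bp downstream of the summit at cct-1, 2 bp downstream at cct-4 and 3 bp upstream at cct-6. It occurred in 3 of the 8 promoters, against 1.52% of IDR peaks, 5% of the first 100 IDR peaks, 0.398% of other pooled regions and 0.521% of coding promoters. GGGTCTC was picked after the sequences had been seen, and CACG was read off these same copies. The count of 3 therefore follows from the choice of letters and is no sign of enrichment. The cct-1 and cct-6 copies are themselves among the IDR peaks counted. The shorter word GGGTCTC was found in the same 3 genes, against 7.39% of IDR peaks, 20% of the first 100 and 2.12% of coding promoters. With a pooled signal of 20.9, against 512 at cct-1 and 427 at cct-6, cct-4 had the element at the same place and little listed signal.

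Other words occurred at few of the promoters. The word CGTAAATC was found at cct-6 alone, 38 bp from the summit, against 58% of the first 100 IDR peaks, 10.7% of all IDR peaks and 1.35% of coding promoters. The promoters of cct-1 and cct-8 are thus among the first 100 peaks without it. The word AAATCGCGG occurred at cct-1 and cct-8, 45 and 27 bp from their summits, against 0.568% of IDR peaks and 0.171% of coding promoters. Of the 3 windows with that word among the first 100 peaks, these were 2. The words of this paragraph were added after the sequences had been seen. Their presence at CCT genes is therefore not independent of the choice. The word GCGAGACC, which overlaps GGGTCTC on the other strand, was found at cct-4 alone, which has no IDR peak. It was found at 22% of the first 100 IDR peaks, 5.81% of all IDR peaks and 1.19% of coding promoters.

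Of the other words searched on both strands, 8 were in none of the CCT windows. They were GAGAGA, found at 39.2% of IDR peaks, CTGCGTC at 18%, the GC box GGGCGG at 10.8%, the GATA-type word GATAAG at 6.5% and the E-box CACGTG at 6.44%. In the same order, the shares were 23%, 4%, 6%, 2% and 5% of the first 100 IDR peaks. At coding promoters they were 12.9%, 2.69%, 4.11%, 8.39% and 3.51%. With 8 windows, of which 4 are not IDR peaks, absence of words with such shares says little. The rarer ones were the E2F-type words TTTCCCGC at 2.71% of IDR peaks and GGCGCGAA at 1.39%, and the AP-1 type word TGACTCA at 1.58%. The word CCAAT was found in 3 of the 8, against 29.8% of IDR peaks and 34% of coding promoters. TATAAA was found in 2 of the 8, against 13.1% of IDR peaks and 23.7% of coding promoters. The GC content of the windows ran from 25.5% at cct-3 to 51% at cct-7, against medians of 43% at IDR peaks and 34% at coding promoters. A match is a run of letters and does not show a site in use.

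Genes of CCT cofactors and clients, and of other chaperone systems, were read in the same lists. They were chosen by name from known function, with earlier results of these data known, and 14 of the 45 had an IDR summit in their window, against 7.72% of all protein-coding genes. Among those 14 are the mitochondrial chaperonin gene hsp-60 and 5 genes of the cytosolic Hsp70 and Hsp90 systems, so the count is not one of CCT cofactors and clients alone. A pooled summit was listed for 36 of the 45, against 41.7%.

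Prefoldin, the complex that passes actin and tubulin chains to CCT, had an IDR summit at 3 of its 6 subunit genes, against 7.72% of all protein-coding genes. These were pfd-1 with a signal of 186 at rank 262, pfd-6 with 140 at rank 388 and pfd-3 with 61.7 at rank 1180. The pfd-1 peak was shared with F01G4.6 and that of pfd-6 with rde-2. All 3 stood below cct-6 and the 2 CCT genes above it, and 2 of them stood above cct-7. The phosducin-like cofactor gene txdc-9 had a signal of 65.5 at rank 1089, in a promoter shared with mrps-17.

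Among the clients, 1 actin gene of 5 had an IDR summit, against 7.72% of all protein-coding genes. It was act-2, with a signal of 54.5 at rank 1430, near the end of the list. Of 16 tubulin genes 3 had one, led by the alpha-tubulin gene tba-2 with a signal of 227 at rank 209. The beta-tubulin genes tbb-2 and tbb-1 had signals of 61.4 and 58.3. None of the 5 tubulin folding cofactor genes had an IDR summit, and none of the 4 other client genes gpb-1, gpb-2, fzy-1 and fzr-1 had one. In sets this small, having none is near the share of 7.72% and says little. All 9 had a pooled summit, against 41.7% of all protein-coding genes.

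The mitochondrial chaperonin gene hsp-60 had a signal of 273 at rank 167, with a summit 610 bp upstream in a promoter shared with Y22D7AL.10, which RefSeq annotates as the mitochondrial 10 kDa heat shock protein. Of 7 genes of the cytosolic Hsp70 and Hsp90 systems 5 had an IDR summit, against 7.72% of all protein-coding genes. The 4 highest were hsp-90 with a signal of 273 at rank 168, hsp-110 with 250 at rank 191, bag-1 with 201 at rank 239 and hsp-1, the constitutive Hsp70, with 160 at rank 316. None of these 45 genes reached the signal of cct-1, cct-8 or cct-6.

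**Figure D3:**
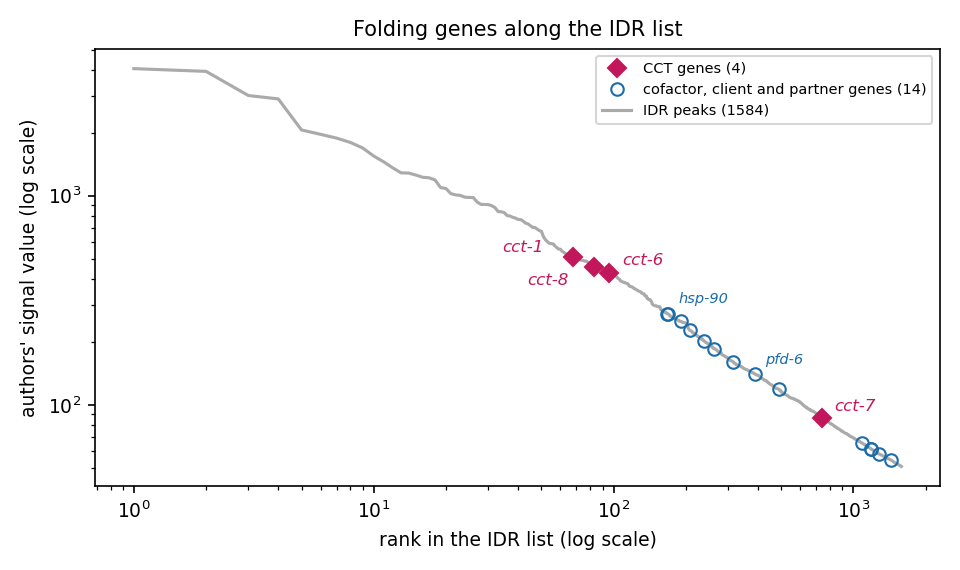
The authors' signal value of the 1584 IDR peaks (y axis, log scale) by rank (x axis, log scale), with the 4 CCT genes as diamonds and the 14 cofactor, client and partner genes with an IDR summit as open circles. The circles include hsp-60 and genes of the cytosolic Hsp70 and Hsp90 systems. The diamonds of cct-1, cct-8 and cct-6 lie to the left of every circle, at signals of 427 to 512, and cct-7 lies among the circles at 86.9.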

How the data were processed

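Peak lists on ce11 were used. Per the labels' file list, a relaxed list was made from each replicate with a shared control alignment, another from the pooled replicates, and an IDR-thresholded list from these. Each region's signal value was deposited by the authors and served only to describe and rank regions of that list. The authors also deposited a −log10 q-value per region, which is printed only for cct-4, cct-2 and cct-3 and as the lowest value of the IDR list. The sources used here do not give the caller, the aligner, the IDR threshold or the read depth, so values carry no counting interval. Chromosome names and lengths matched the reference, and 0 regions reached beyond a chromosome end.

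Gene starts came from Ensembl release 115, with RefSeq starts as an alternative added later. Summits were assigned by Python 3.11.15 (numpy 2.4.6, pandas 2.3.3), checked on planted positions, and motifs were counted on both strands in 200 bp around each summit. Of 18 motifs, 6 were added after the sequences had been seen. The members, lists and motifs were chosen with earlier results of these data known. All members, their neighbours and up to 4 bound genes per list were named. Regions on ce10 were not used. No test was run.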

Additional observations from a re-analysis of the deposited data

How the results depend on the processing

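Of 37 alternative values for 10 results, 34 kept the reported value or moved by less than the limit set for them. The limit was 1.5 times for a count and 1 SD for a rank or distance. For the distance the SD was taken over the genes. For the rank it was the SD of the 2 replicate medians, which are themselves among the values judged, so that limit is not independent. The exceptions were 3. The genes whose summit also lay in the window of another coding gene numbered 8 in the pooled list, which holds all 8 genes. The median rank was 2540 in the replicate 1 list over 8 genes, past the limit. In the replicate 2 list it was 1473 over 7 genes, within the limit. Paired heat shock element units were within 100 bp windows in 2 genes, against 6.12% of IDR peaks. Counts of genes with an IDR peak stayed at 4 under narrower and wider promoter windows, with only the most 5′ start and with RefSeq starts. No IDR list of a single replicate was used, and among the first 1584 regions of each replicate's own relaxed list the count was also 4. Since the IDR list was made from both replicates, that count is not a separate check. No paired analysis was possible because the labels hold 1 group. Read depth is unknown, and the spread of a region of low signal is known only from its 2 replicate ranks. At cct-4 these were 4457 and 25868.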
